A study of Homo sapiens with 4 samples.

Results

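The genes described here make up the cholesterol and fatty acid synthesis pathway under the sterol regulatory element-binding proteins (SREBPs). They are 30 genes chosen by name, of 60649 in the count table. Of these, 4 belong to the SREBP machinery (SREBF1, SREBF2, SCAP, INSIG1), 7 to the mevalonate pathway (ACAT2, HMGCS1, MVK, PMVK, MVD, IDI1, FDPS) and 11 to the steps from squalene to cholesterol (FDFT1, SQLE, LSS, CYP51A1, TM7SF2, MSMO1, NSDHL, HSD17B7, EBP, SC5D, DHCR7). STARD4 moves sterols between membranes, and 7 genes make and modify fatty acids (ACLY, ACACA, FASN, SCD, FADS1, FADS2, ELOVL6). The 18 genes of the mevalonate and squalene steps are called the sterol arm below, and the 7 fatty acid genes the fatty acid arm.

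RNA sequencing was done on FaDu, an established squamous carcinoma cell line from the human hypopharynx. One group carried an empty vector, and the other overexpressed TINCR in a form named TINCR-HA-FLAG after the HA and FLAG epitope tags. TINCR is known as a long noncoding RNA of keratinocyte differentiation, but epitope tags are peptides, present only where a construct is translated. The parts of the RNA and of a tagged protein in the differences were not tested. The cells of both groups grew in MEM alpha Glutamax with 10% fetal bovine serum. The labels do not give the promoter of the construct, how it was delivered, or whether the cells were a clone or a pool. Each group had 2 libraries that the series calls technical replicates, and p-values therefore reflect the spread of these libraries alone, which may be technical. The question was how gene expression differs with tagged TINCR.

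The 4 libraries held 17069533 to 22331602 counts. Counts of TINCR itself were 68 and 64 with the empty vector, against 1921 and 2943 with the construct. The 9 squamous and simple epithelial markers summed to 10849 and 12654 CPM with the empty vector and to 9718 and 11809 CPM with TINCR-HA-FLAG, where CPM is the count scaled to a library of one common size, after TMM normalization. Of these markers, the basal keratin gene KRT14 was called lower (log2 fold change -1.08, edgeR adjusted p = 0.014), and the other 8 were not called. In sum, leukocyte markers had 3.86 to 4.84 CPM, endothelial markers 9.57 to 13.8, fibroblast markers 41.8 to 50.9 and adipocyte and hepatocyte markers 2.18 to 2.69. VWF made up most of the endothelial sum, and ADIPOQ had 0 counts in every library. The share of mitochondrial genes was 9.43% and 7.58% in the empty vector libraries, and 11.4% and 8.66% in the others.

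As background, SREBPs are made as membrane proteins of the endoplasmic reticulum. SCAP carries them to the Golgi, where proteases free the part that enters the nucleus and switches on lipid synthesis genes. Sterols hold the SCAP complex back through INSIG proteins, so the pathway turns down when sterols are plentiful. SREBF2 acts mainly on sterol genes, and SREBF1 more on fatty acid genes. In stratified squamous epithelium, cholesterol and long-chain fatty acids are also building blocks of the barrier lipids of the surface.

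All 30 genes passed the filter on low counts, and no gene of the 30 was called. A call means an adjusted p under 0.05 in the edgeR quasi-likelihood test over all 18771 genes tested, which 0.453% of genes reached as higher and 0.0959% as lower with TINCR-HA-FLAG. DESeq2 called 0 of the 30 too. At an unadjusted p under 0.05, 5 members were lower (16.7%), beside 4.31% of all genes tested, and 1 was higher (3.33%), beside 5.88%. Negative log2 fold changes were found for 23 of the 30 (76.7%), beside 49.3% of all genes, and the median was -0.09, beside 0.0042. The 5 lower genes were HMGCS1, FDPS, LSS, FASN and ELOVL6, and the higher one was TM7SF2. As in any bulk RNA measurement, fewer cells that express a gene and less RNA per cell cannot be told apart.

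**Figure D1:**
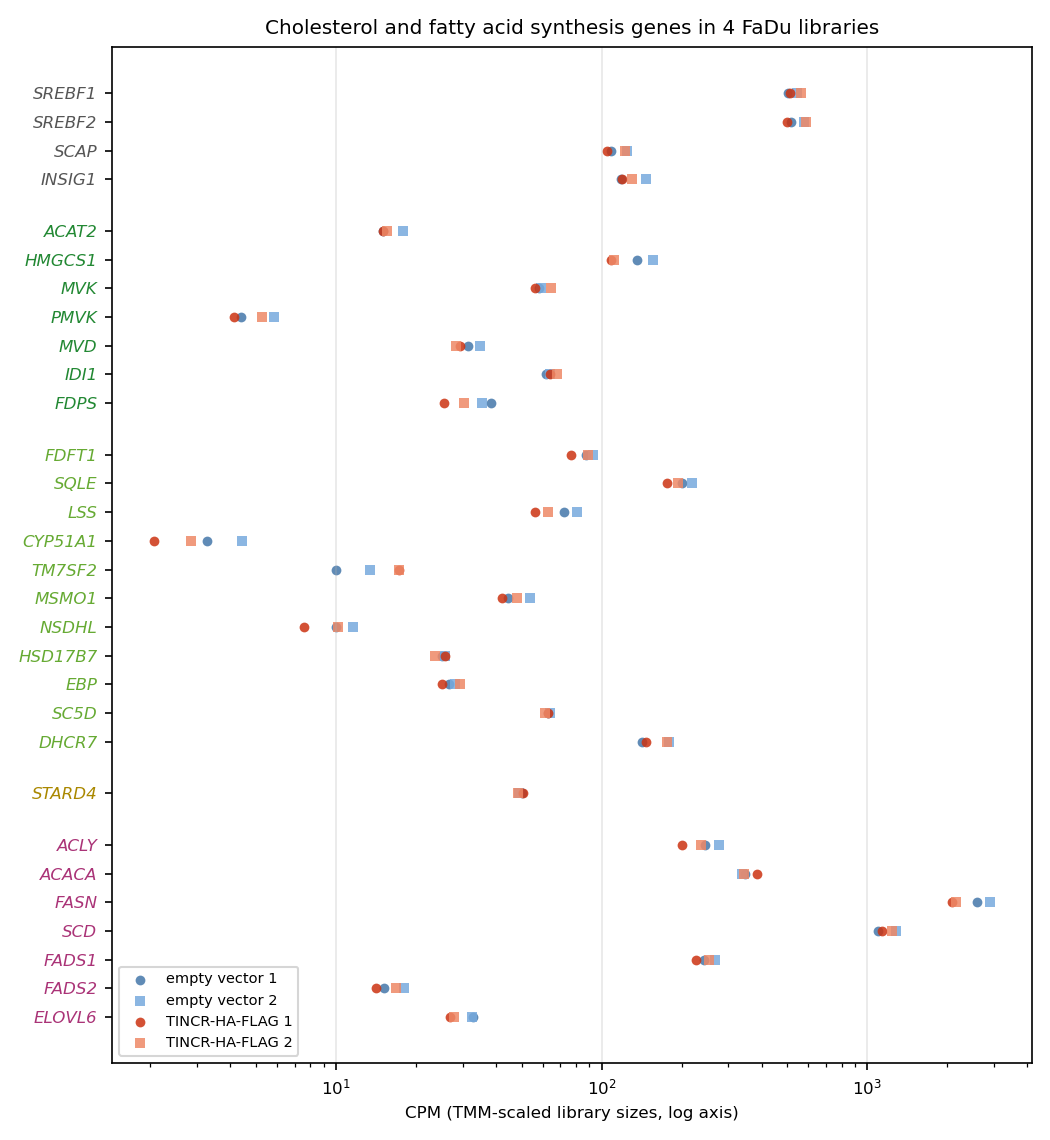
Level of each of the 30 genes in CPM (log axis, TMM-scaled library sizes) in the 4 libraries, with genes coloured by role as in the plot of changes: machinery grey, mevalonate dark green, squalene steps light green, STARD4 ochre, fatty acids purple. Circles are replicate 1 and squares replicate 2; FASN and SCD have the highest values in every library, 1095 CPM or more, and CYP51A1 the lowest.

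Levels spanned a wide range. Scaled to the merged exon length of each gene, which allows genes to be compared, FASN had the highest level with the empty vector at 293 CPM per kilobase, followed by SCD at 221. SREBF2 and SREBF1 came next at 72.2 and 65.1 CPM per kilobase. ACLY and SQLE had 49.8 and 48.7, and HMGCS1 had 31.01. The lowest values were 1.07 for CYP51A1 and 1.501 for FADS2. The levels of CYP51A1 and ACAT2 are uncertain because they share exons with other genes. Other genes, mainly on the same strand, cover 83.2% of the exon length of CYP51A1, and 2 of them, with identifiers ENSG00000285772.1 and ENSG00000285953.1, are listed at 0 counts in every library. For ACAT2 the covered share was 52.3%, all on the opposite strand, and TCP1 is among the overlapping genes with 4856 to 6396 counts per library.

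The SREBP machinery had overlapping groups in all 4 genes. SREBF1 encodes the SREBP of fatty acid synthesis (ENSG00000072310.18, GRCh38 chr17:17810399-17837002, minus strand). It had 503 and 542 CPM with the empty vector and 513 and 564 CPM with TINCR-HA-FLAG. This gave a log2 fold change of 0.04, with a 95% interval from -0.22 to 0.30. SREBF2, which encodes the SREBP of cholesterol synthesis (ENSG00000198911.12, chr22:41833079-41907308, plus strand), had 515 and 576 CPM against 499 and 586.5 CPM. Its log2 fold change was -0.0065, with an interval from -0.29 to 0.28. In both genes the lower and the higher value of one group lay close to those of the other.

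SCAP, the escort and sterol sensor of the SREBPs, had 108 and 124 CPM with the empty vector and 105 and 122 CPM with TINCR-HA-FLAG. INSIG1, the retention protein that is itself a SREBP target, had 118 and 147 CPM against 119 and 129.95 CPM. Log2 fold changes were -0.03 for SCAP and -0.09 for INSIG1, and the edgeR adjusted p of the 4 machinery genes lay between 0.89 and 0.99. The interval of INSIG1 ran from -0.36 to 0.19, so changes within that range are not excluded.

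The promoters below belong to SREBF2, the 1 member with the sterol response element letters searched for, and to the 4 sterol arm genes with the smallest unadjusted p, of which HMGCS1, FDPS and LSS had lower and TM7SF2 higher values. Sequences are from RefSeq (GRCh38.p14), each 300 bases from 250 before to 50 after a transcription start, printed 5′ to 3′ on the strand of the gene. Capitals mark the NF-Y box (CCAAT, or ATTGG where it lies on the other strand) and, in SREBF2, the sterol response element core (TCACNCCAC).
SREBF2 (chr22:41832855-41833154, plus strand): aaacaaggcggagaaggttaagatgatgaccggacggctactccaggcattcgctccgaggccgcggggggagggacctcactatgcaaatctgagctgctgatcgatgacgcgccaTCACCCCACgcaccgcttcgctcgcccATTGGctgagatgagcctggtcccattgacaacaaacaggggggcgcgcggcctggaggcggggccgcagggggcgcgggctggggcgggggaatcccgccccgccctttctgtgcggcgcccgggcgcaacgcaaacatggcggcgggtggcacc
HMGCS1 (chr5:43313363-43313662, minus strand): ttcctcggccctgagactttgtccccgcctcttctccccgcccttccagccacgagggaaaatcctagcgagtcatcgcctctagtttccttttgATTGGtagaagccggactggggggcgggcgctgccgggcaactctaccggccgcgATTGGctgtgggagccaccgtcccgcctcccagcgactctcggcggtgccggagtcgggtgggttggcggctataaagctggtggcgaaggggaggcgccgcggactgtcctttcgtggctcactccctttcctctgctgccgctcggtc
FDPS (chr1:155308616-155308915, plus strand): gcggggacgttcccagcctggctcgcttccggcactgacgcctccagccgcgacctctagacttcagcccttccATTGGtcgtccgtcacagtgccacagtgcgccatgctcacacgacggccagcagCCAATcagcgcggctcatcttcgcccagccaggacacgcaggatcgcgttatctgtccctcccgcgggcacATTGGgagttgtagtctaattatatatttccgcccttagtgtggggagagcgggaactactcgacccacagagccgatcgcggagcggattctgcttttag
LSS (chr21:46228725-46229024, minus strand): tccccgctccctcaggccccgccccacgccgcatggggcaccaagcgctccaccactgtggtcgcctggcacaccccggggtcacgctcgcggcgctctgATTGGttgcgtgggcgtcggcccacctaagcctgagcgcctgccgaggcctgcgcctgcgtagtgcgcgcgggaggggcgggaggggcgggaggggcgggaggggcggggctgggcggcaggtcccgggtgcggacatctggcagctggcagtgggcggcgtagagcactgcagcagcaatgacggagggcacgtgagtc
TM7SF2 (chr11:65111622-65111921, plus strand): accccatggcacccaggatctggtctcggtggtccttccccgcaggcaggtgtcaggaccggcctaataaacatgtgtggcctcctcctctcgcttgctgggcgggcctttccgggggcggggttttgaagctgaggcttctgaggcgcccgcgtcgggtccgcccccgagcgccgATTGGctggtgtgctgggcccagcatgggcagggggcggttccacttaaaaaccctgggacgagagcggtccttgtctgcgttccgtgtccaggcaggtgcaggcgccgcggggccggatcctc

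Promoter windows were found for 26 of the 30 genes, and those of ACAT2, FDFT1, SQLE and FASN were not analysed here. Motifs were searched on both strands. TCACNCCAC was in the window of 1 of the 26 genes, SREBF2, where it begins 133 bases before the start, and in 1.13% of the 35116 windows in the table. A shortened form chosen after the first search, CACNCCAC, overlaps with it and was in windows of 6 of the 26 (SREBF2, INSIG1, IDI1, SC5D, ACACA and SCD), beside 5.87% of all windows. CCAAT, the box bound by NF-Y, was in windows of 20 of the 26 genes (76.9%), beside 34.6% of all windows. In the sterol arm it was in 13 of 15 and in the fatty acid arm in 4 of 6. Some genes have more than 1 window, which raises a share per gene over a share per window. GGGCGG, the Sp1 box, was in 25 of 26 (45% of all windows), and CACGTG, an E-box, in 4 of 26 (7.26% of all windows). The HMGCS1 window has CCAAT letters at 2 places, that of FDPS at 3, and those of LSS and TM7SF2 at 1 each. HMGCS1 has another window, for a further start, without CCAAT. For a printed gene with more than 1 window, the window with the most CCAAT letters was chosen. The CCAAT count of such a gene is therefore its highest over the windows.

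**Figure D2:**
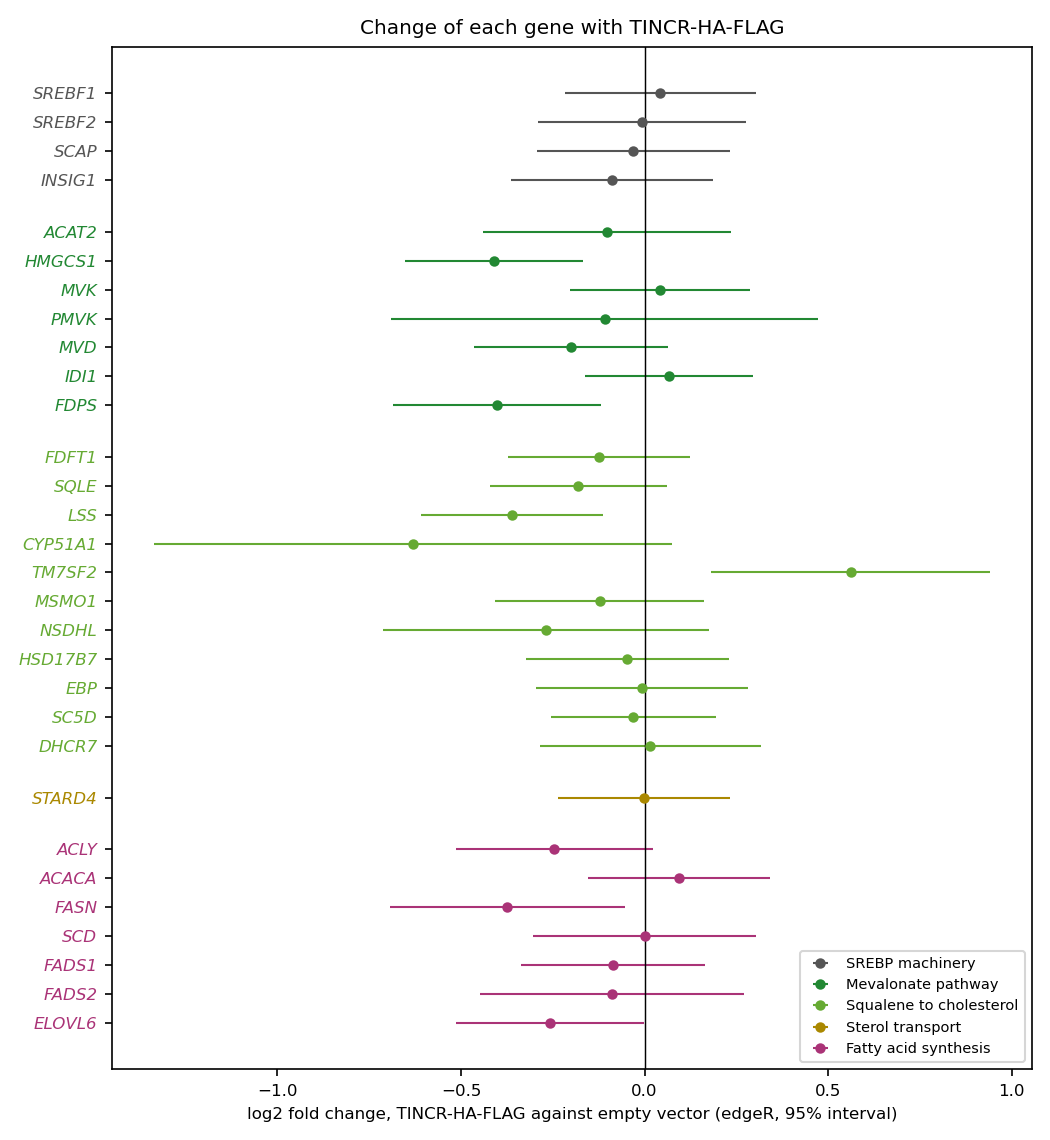
Log2 fold change of each of the 30 genes with TINCR-HA-FLAG against the empty vector (edgeR, horizontal axis) with its 95% interval, coloured by role. The intervals of HMGCS1, FDPS, LSS, FASN and ELOVL6 lie below 0 and that of TM7SF2 above 0 before adjustment, and no gene passed the adjusted threshold.

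In the mevalonate pathway, which turns acetyl-CoA into the isoprenoid units of sterols, 5 of 7 genes had negative log2 fold changes and the median was -0.11. HMGCS1 makes HMG-CoA, the precursor of mevalonate (ENSG00000112972.15, chr5:43289395-43313512, minus strand). It had 135 and 156 CPM with the empty vector and 108 and 111 CPM with TINCR-HA-FLAG. Both TINCR-HA-FLAG libraries were below both empty vector libraries. The means were 146 ± 14.7 and 109.65 ± 2.25 CPM (SD, n = 2 per group). HMGCS1 had a log2 fold change of -0.41 (SE, the standard error, 0.11; edgeR adjusted p = 0.18). This adjusted p was the smallest of the 30 genes.

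FDPS makes farnesyl diphosphate, from which both sterols and prenyl groups are built (ENSG00000160752.15, chr1:155308748-155320666, plus strand). It had 38.5 and 35.5 CPM with the empty vector and 25.6 and 30.3 CPM with TINCR-HA-FLAG, and the groups did not overlap. Its log2 fold change was -0.40 (SE 0.13, edgeR adjusted p = 0.29). An antisense gene, RUSC1-AS1, has exons in 18.6% of the FDPS exon length and had 218, 89, 126 and 105 counts in the same order of libraries. The table also lists 8 copies named FDPSP, with at most 9 counts each, so the value of FDPS is uncertain to the extent that reads are shared.

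MVD, which makes isopentenyl diphosphate, had 31.3 and 34.7 CPM with the empty vector and 29.3 and 28.3 CPM with TINCR-HA-FLAG. These groups did not overlap, with a log2 fold change of -0.20 (edgeR adjusted p = 0.65). IDI1, the isomerase that follows, had 61.7 and 64.2 CPM against 63.8 and 68.02 CPM, and its groups overlapped. The other 3 genes overlapped as well: the mevalonate kinase MVK had a log2 fold change of 0.04, the phosphomevalonate kinase PMVK of -0.11 and the acetoacetyl-CoA thiolase ACAT2 of -0.10. PMVK had only 75 to 117 counts per library, and its 95% interval ran from -0.69 to 0.47.

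In the steps from squalene to cholesterol, 9 of 11 genes had negative log2 fold changes, with a median of -0.12. LSS closes the ring of the first sterol, lanosterol (ENSG00000160285.15, chr21:46188141-46228824, minus strand). It had 72.5 and 80.7 CPM with the empty vector and 56.1 and 63.01 CPM with TINCR-HA-FLAG. All values of one group were below those of the other. LSS had a log2 fold change of -0.36 (SE 0.11, edgeR adjusted p = 0.27).

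SQLE, the squalene epoxidase, had 201 and 218 CPM with the empty vector and 176 and 194 CPM with TINCR-HA-FLAG. Its groups did not overlap, but by a narrow gap (log2 fold change -0.18, edgeR adjusted p = 0.65). CYP51A1, the lanosterol demethylase, had 56 and 75 counts against 38 and 63 counts, which is 3.27 and 4.42 against 2.06 and 2.84 CPM. It had the largest negative log2 fold change of the 30 (-0.63), with an interval from -1.34 to 0.08, and rests on few counts and the shared exons given above.

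TM7SF2, a sterol C14 reductase, went the other way (ENSG00000149809.17, chr11:65111845-65116384, plus strand). It had 10.04 and 13.4 CPM with the empty vector and 17.2 and 17.4 CPM with TINCR-HA-FLAG. Both TINCR-HA-FLAG libraries were above both empty vector libraries. Its log2 fold change was 0.56 (SE 0.17, edgeR adjusted p = 0.26), a value that was 0.33 without empty vector replicate 1. LBR, which encodes another reductase for the same step, had 137 and 148 CPM against 126 and 131 CPM, with a log2 fold change of -0.15; it was chosen after its values were seen.

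DHCR7, the reductase of the last step to cholesterol, had 142 and 179 CPM with the empty vector and 148 and 177 CPM with TINCR-HA-FLAG. The spread within each group was wider than the difference between the means. SC5D, a sterol desaturase, had groups that did not overlap, with lower values with TINCR-HA-FLAG, at a log2 fold change of -0.03. For the other 5 genes the groups overlapped: the log2 fold change was -0.12 for the squalene synthase FDFT1, -0.12 for the methylsterol oxidase MSMO1 and -0.27 for the sterol dehydrogenase NSDHL. It was -0.05 for the reductase HSD17B7 and -0.0071 for the isomerase EBP. STARD4 had 50.2 and 48.96 CPM against 50.7 and 48.4 CPM, with a log2 fold change of -0.0018 and an interval from -0.24 to 0.23.

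In the fatty acid arm, 5 of 7 genes had negative log2 fold changes, with a median of -0.09. FASN, the enzyme that builds palmitate (ENSG00000169710.9, chr17:82078333-82098332, minus strand), had 2596 and 2899 CPM with the empty vector. With TINCR-HA-FLAG it had 2084 and 2157 CPM, and the groups did not overlap. FASN had a log2 fold change of -0.37 (SE 0.14, edgeR adjusted p = 0.41). ELOVL6, which elongates palmitate (ENSG00000170522.10, chr4:110045846-110199199, minus strand), had 32.9 and 32.6 CPM against 26.9 and 27.9 CPM. The spread within each of its groups was narrow beside the gap between them, and the log2 fold change was -0.26 (SE 0.12, edgeR adjusted p = 0.49).

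ACLY, which makes cytosolic acetyl-CoA from citrate for both arms, had 244 and 276 CPM with the empty vector and 201 and 237 CPM with TINCR-HA-FLAG. Its groups did not overlap, but empty vector replicate 1 and TINCR-HA-FLAG replicate 2 were near each other (log2 fold change -0.25, edgeR adjusted p = 0.55). SCD, the stearoyl-CoA desaturase, had 1095 and 1278 CPM against 1136.5 and 1237 CPM. Its means were 1186.5 CPM in both groups, with an interval of the log2 fold change from -0.30 to 0.30. Log2 fold changes were 0.09 for the acetyl-CoA carboxylase ACACA, -0.09 for the desaturase FADS1 and -0.09 for the desaturase FADS2, and the groups of all 3 overlapped. Other genes cover 5.57% of the exon length of FADS1 and 4.89% of that of FADS2, each other included.

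The arms were then set side by side. The median log2 fold change was -0.12 over the 18 sterol genes and -0.09 over the 7 fatty acid genes, a difference of -0.03. By library, on log2 CPM minus the empty vector mean, this difference was 0.0041 and -0.0041 with the empty vector. These 2 values mirror each other because of the centring. With TINCR-HA-FLAG the difference was 0.027 and -0.053. The pooled standard deviation within groups was 0.04, larger than the difference of the medians, and came mostly from the TINCR-HA-FLAG libraries. In the sterol arm the groups were apart in 7 genes as lower (38.9%) and in 1 as higher (5.56%), beside 17.9% and 21.7% of all genes tested. In the fatty acid arm they were apart in 3 of 7 as lower (42.9%) and in none as higher. Among all 30 these counts were 10 lower and 1 higher.

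Sums of CPM weight the abundant genes most. The fatty acid genes summed to 4570 and 5109.5 CPM with the empty vector and to 4075 and 4274 CPM with TINCR-HA-FLAG, without overlap. FASN made up 50.5% to 56.8% of these sums. Without FASN the sums were 1974 and 2211 CPM against 1990 and 2117 CPM, which overlapped. The sterol genes summed to 1029.6 and 1145 CPM against 940 and 1038.5 CPM, which overlapped as well.

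**Figure D3:**
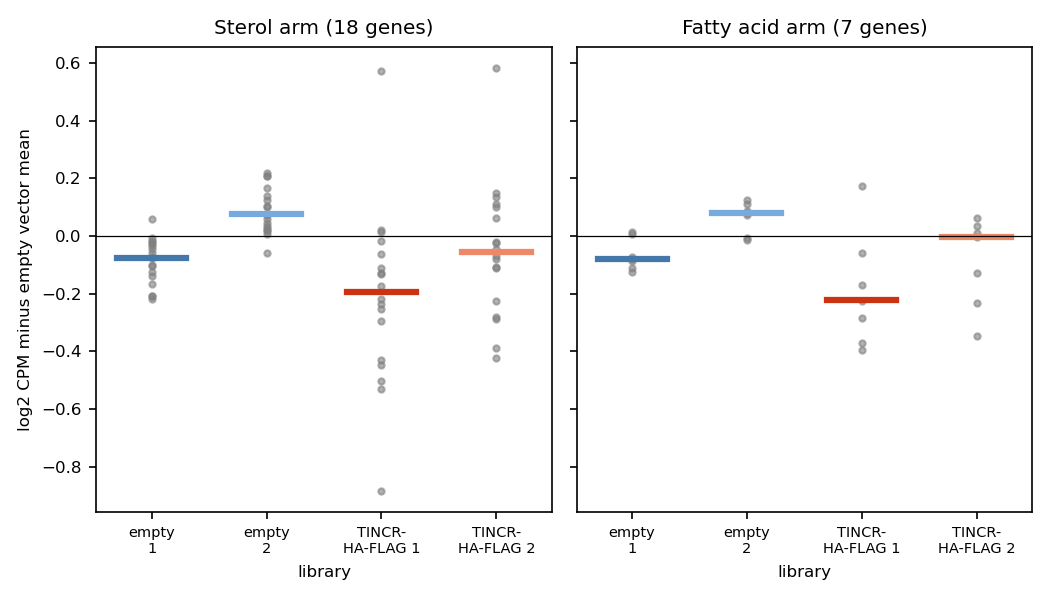
Log2 CPM of each gene (grey points) minus its mean over the empty vector libraries, by library, for the 18 genes of the sterol arm and the 7 of the fatty acid arm, with the median of the arm as a coloured bar. In both arms empty vector replicate 2 has the highest median and TINCR-HA-FLAG replicate 1 the lowest.

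Much of the spread in these genes was within the groups. With the empty vector, 26 of the 30 genes were higher in replicate 2 than in replicate 1 (86.7%), beside 49.6% of all genes tested. With TINCR-HA-FLAG, 25 of the 30 were higher in replicate 2 (83.3%), beside 48.5% of all genes. A fit with the replicate number as a block called 7 of the 30 lower and 1 higher. It called 1316 lower and 1317 higher among all 18771 genes tested. The labels do not establish such a pairing. The median of the sterol arm, as log2 CPM minus the empty vector mean, was -0.08 and 0.08 in the empty vector libraries and -0.20 and -0.06 in the TINCR-HA-FLAG libraries. In the fatty acid arm these values were -0.08, 0.08, -0.22 and -0.0034. The share of mitochondrial counts had the reverse order of libraries to both medians. It was 7.58% in empty vector replicate 2, 8.66% in TINCR-HA-FLAG replicate 2, 9.43% in empty vector replicate 1 and 11.4% in TINCR-HA-FLAG replicate 1. With the mitochondrial genes left out before normalization, a setting chosen after seeing the data, the medians of the 2 arms were -0.12 and -0.10. This setting changes little beyond the scaling of the libraries, so it cannot show a part of RNA quality or composition. The summed epithelial markers had the same order of libraries as both medians, highest in empty vector replicate 2 and lowest in TINCR-HA-FLAG replicate 1. The part of RNA quality or composition, or of these markers, in the medians was not tested.

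Single libraries moved the medians. With a library left out, the replicate numbers are unequal between the groups. Most of the 30 genes were higher in replicate 2 in both groups, and the part of this in the moves was not tested. Without empty vector replicate 1 the sterol median was -0.27 and the fatty acid median -0.25. Without empty vector replicate 2 they were -0.02 and -0.0050. Leaving out TINCR-HA-FLAG replicate 1 gave -0.05 and 0.00062, and leaving out its replicate 2 gave -0.21 and -0.24. The number of negative log2 fold changes among the 30 was 28, 15, 17 and 25 in the same order. HMGCS1, FDPS, LSS, FASN and ELOVL6 were lower and TM7SF2 higher in each of the 4 fits, where the edgeR adjusted p of these 6 genes lay between 0.063 and 0.94.

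**Figure D4:**
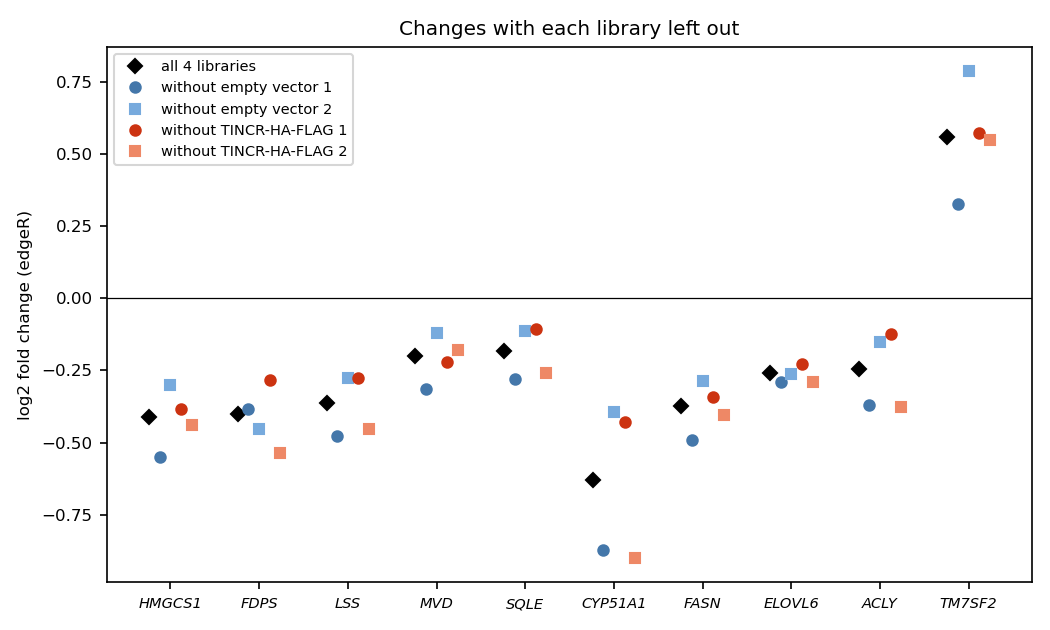
Log2 fold change (vertical axis) of 10 of the 11 genes whose groups did not overlap (SC5D is not drawn), with all 4 libraries (black diamonds) and with each library left out (coloured symbols). The sign of each gene is the same in all 5 fits, while LSS ranges from -0.48 to -0.28 and TM7SF2 from 0.33 to 0.79.

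Of 99 other genes in 7 lists of neighbouring functions, 96 were tested, and 1 was called, CHKA, as higher, beside 0.453% of all genes tested that were called higher. CHKA is a choline kinase at the first step of phosphatidylcholine synthesis (ENSG00000110721.12, chr11:68052859-68121444, minus strand). It rose from 29.9 and 26.5 CPM with the empty vector to 52.6 and 46.7 CPM with TINCR-HA-FLAG. CHKA had a log2 fold change of 0.81 (SE 0.12, edgeR adjusted p = 0.022), and it was called in all 12 alternatives, with values from 0.73 to 0.89 and adjusted p up to 0.049. Among the 14 genes of glycerolipid synthesis it was the 1 gene called, and the median of the list was -0.03. LPIN2, a phosphatidate phosphatase of the same list, had 2.57 and 3.13 CPM against 4.34 and 6.49 CPM (log2 fold change 0.94, edgeR adjusted p = 0.29).

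Genes of SREBP processing, among them the site proteases and ubiquitin ligases of the pathway, had a median of 0.09, with 7 of 10 positive and none called. RNF145, a ligase that acts on SCAP, had 86.3 and 96.2 CPM against 100.3 and 103.85 CPM (log2 fold change 0.16). TRIB1, a pseudokinase that guides a ubiquitin ligase, had 21.4 and 18.1 CPM against 22.8 and 22.5 CPM (0.20). Of the 12 isoprenoid and further sterol enzymes, 9 were negative, with a median of -0.04. FDX1, an electron carrier for mitochondrial enzymes, had 26.4 and 28.5 CPM against 18.6 and 21.6 CPM (log2 fold change -0.45, edgeR adjusted p = 0.25). PDSS1, which builds the side chain of coenzyme Q, had 8.76 and 9.32 CPM against 5.92 and 7.84 CPM (-0.38).

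In the list of fatty acid supply, elongation and activation, 24 of 27 genes were tested, 15 were negative and the median was -0.07. FADS3, a relative of FADS1 and FADS2, had 121 and 123 CPM with the empty vector and 96.5 and 106 CPM with TINCR-HA-FLAG (log2 fold change -0.27, edgeR adjusted p = 0.39). HACD4, a dehydratase of the elongation cycle, had 2.10 and 2.48 CPM against 4.45 and 4.01 CPM (0.88, edgeR adjusted p = 0.32). Both genes had groups that did not overlap, in opposite directions.

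The liver X receptors sense oxysterols and turn on sterol export and SREBF1. Of 9 genes of these receptors and their targets, 6 were positive, and the median was 0.26. The groups were apart as higher in 5 (55.6%) and as lower in 1 (11.1%), beside 21.7% and 17.9% of all genes tested. No gene of the list was called. MYLIP, a ligase that degrades lipoprotein receptors, had 26.7 and 26.5 CPM against 33.2 and 30.5 CPM (log2 fold change 0.26, edgeR adjusted p = 0.52). ABCG1, a sterol exporter, had 0.992 and 1.65 CPM against 2.17 and 2.52 CPM (0.84, edgeR adjusted p = 0.52).

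The list of sterol uptake, transport and esters (14 genes) had a median of -0.04, and that of fatty acid oxidation (13 genes) of 0.05, with no gene called in either. GRAMD1C, a sterol transfer protein, had 22.4 and 19.5 CPM against 31.8 and 26.8 CPM (log2 fold change 0.48, edgeR adjusted p = 0.23). It was called without TINCR-HA-FLAG replicate 2 (adjusted p = 0.038). NPC2, a lysosomal sterol carrier, had 59.4 and 70.5 CPM against 56.2 and 59.9 CPM (-0.16). PPARA, a transcription factor of fatty acid oxidation, had 137 and 158 CPM against 164 and 175 CPM (0.20), and the carnitine carrier SLC25A20 had 4.44 and 4.19 CPM against 3.15 and 3.29 CPM (-0.42). Of the 96 genes tested in the 7 lists, 5 were higher (5.21%) and 3 lower (3.12%) at an unadjusted p under 0.05, both shares below the 5.88% and 4.31% of all genes tested.

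**Figure D5:**
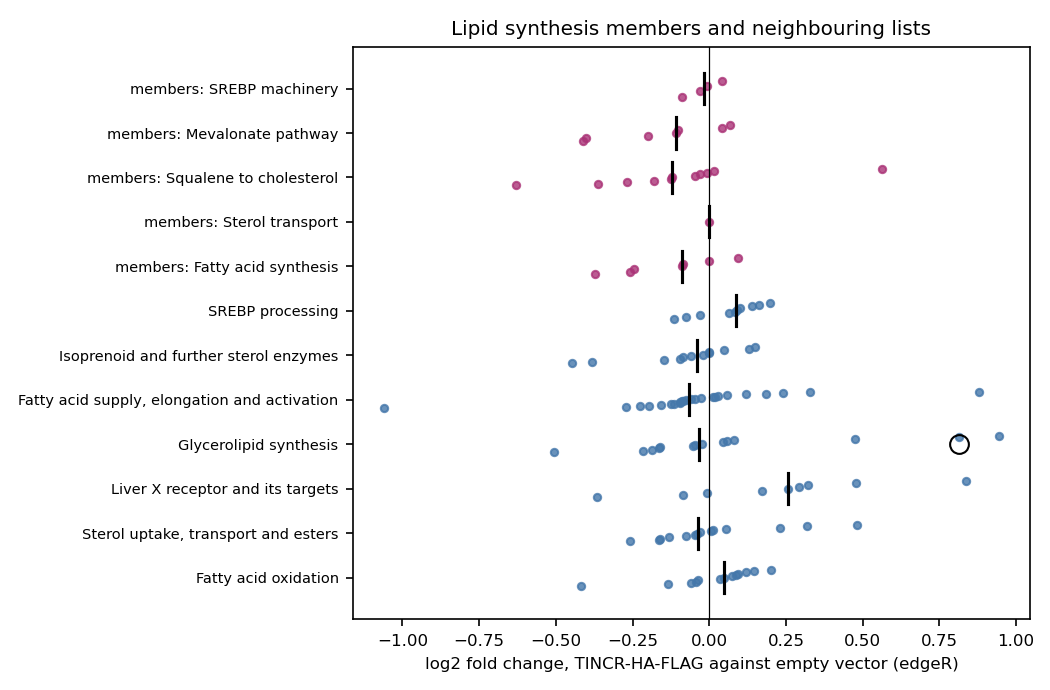
Log2 fold change (horizontal axis, edgeR) of the 30 members by role (purple) and of the tested genes of 7 neighbouring lists (blue), with the median of each list as a black bar. The circled gene in the glycerolipid list is CHKA, the 1 gene called, and the largest median, 0.26, is that of the liver X receptor list.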

How the data were processed

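Per the labels' protocols, an RNeasy Mini Kit gave total RNA and a NEBNext Ultra kit the libraries. The values deposited by the authors are raw counts per Ensembl gene, with no normalization. Tools in the submitters' processing notes, with no role stated, are STAR 2.7.9a, bcl2fastq 2.20.0.422 and DESeq2 1.32.0, and the build is GRCh38. How reads were assigned to genes, whether by strand, and with which annotation is not given in the sources used here, so overlapping and antisense genes may share reads. The table has 12 more library columns, of samples not analysed here. Symbols were taken by Ensembl identifier (60463 of 60649 rows matched), positions and merged exon lengths from GENCODE release 29, also on GRCh38.

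Groups came from the sample titles. Counts passed through filterByExpr (default settings, 18771 genes left), TMM and the edgeR 4.0.16 quasi-likelihood test (robust, non-legacy) in R 4.3.3, with Benjamini-Hochberg adjustment over all genes; calls have an adjusted p under 0.05. With 4 libraries in 2 groups, 2 residual degrees of freedom remain. At these depths 3 counts are 0.135 to 0.177 CPM, which covers counting error only. Standard errors come from the F statistic, and 95% intervals from the same fit. The fits were also run on simulated counts, with independent libraries and the same dispersion for every gene, and the outcome is not reported here. Such counts lack the shared deviations of same-numbered libraries described below.

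Members and lists were chosen with earlier results of these data known. Values in every library are given for called members and, in each role, for the 3 smallest unadjusted p and the 2 highest levels, and of each other list for called genes and the 2 smallest p. Alternatives were DESeq2 1.42.0, RLE size factors, library totals, other filters, a block for the replicate number, edgeR's legacy dispersion, leaving out each library and, added later, leaving out mitochondrial genes.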

Additional observations from a re-analysis of the deposited data

How the results depend on the processing

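Over all genes tested, 85 were called higher and 18 lower. DESeq2 called 131 and 59. Without a filter 47 and 6 were called. Leaving out single libraries gave 69 (without empty vector replicate 1) to 226 (without TINCR-HA-FLAG replicate 2) higher and 45 (without empty vector replicate 2) to 160 (without TINCR-HA-FLAG replicate 2) lower. In every one of these settings 0 of the 30 members were called.

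The replicate number as a block gave 1317 higher and 1316 lower calls over all genes, with 7 members lower (HMGCS1, FDPS, SQLE, LSS, ACLY, FASN and ELOVL6) and 1 higher (TM7SF2). Among the 14 other pathway genes named, it called CHKA, GRAMD1C (adjusted p = 5.8e-05), PPARA (0.0065), HACD4 and LPIN2 as higher, and FDX1 and FADS3 as lower. The labels do not say that a number marks a shared batch or culture, so a pairing is not established. With the block 1 residual degree of freedom is left. Same-numbered libraries deviated together (correlation of deviations from the group means 0.37 over all genes tested and 0.45 over the members), as a description over genes.

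Leaving out single libraries moved the sterol median from -0.12 to between -0.27 and -0.020, the fatty acid median from -0.09 to between -0.25 and 0.00062, and their difference from -0.03 to between -0.054 and 0.029. Of the 30 members, 14 kept their direction in all 12 alternatives, among them the 6 with an unadjusted p under 0.05. The others had small values, and the cause of the changes was not tested. With single libraries left out the log2 fold change ran from -0.051 to 0.11 for SREBF1, -0.13 to 0.11 for SREBF2, -0.17 to 0.081 for SCAP, -0.28 to 0.086 for INSIG1, -0.26 to 0.030 for ACAT2, -0.067 to 0.14 for MVK and -0.34 to 0.12 for PMVK. It ran from -0.0017 to 0.12 for IDI1, -0.30 to 0.028 for MSMO1, -0.11 to 0.0096 for HSD17B7, -0.13 to 0.11 for EBP, -0.18 to 0.20 for DHCR7, -0.028 to 0.026 for STARD4, -0.15 to 0.12 for SCD, -0.20 to 0.00062 for FADS1 and -0.25 to 0.046 for FADS2. With library totals the value was 0.012 for SREBF2, 0.011 for EBP and 0.017 for STARD4. STARD4 had 0.00094 with no filter and 0.00068 with at least 1 CPM in 2 libraries. With DESeq2 the value was -0.0042 for DHCR7 and -0.020 for SCD, with RLE size factors -0.0037 and -0.020, and SCD had -0.0070 with mitochondrial genes left out.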
